A study of Mus musculus with 12 samples.

Results

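The 10 genes described here make, move, break down or sense prostaglandins, and they were followed in mouse embryonic fibroblasts of 4 genotypes, 6 days after these were set to become adipocytes. All 10 were found among the 37991 gene identifiers of the count tables, and all 10 passed the filter on low counts that left 16163 genes for testing. The set was chosen by its values in these libraries: it was taken up because Hpgd was higher in double-knockout than in wild-type cells and Ptger3 was lower in Ing1-KO than in wild-type cells. The members' values in that pair of comparisons are therefore given as descriptions, without a p-value, and nothing is read from their counts of calls there. Genes outside the set keep their tests.

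Poly(A) RNA was sequenced in 12 libraries, 3 for each genotype: Gadd45a-/-;Ing1-/- double knockout (DKO), Ing1-/- (Ing1-KO), Gadd45a-/- (Gadd45a-KO) and wildtype (WT). All cells were on a C57BL/6N background, came from male embryos of day E15.5, had been through 4 passages, and received the same inducing mixture for 48 h, namely insulin at 10 µg/ml, rosiglitazone at 2 µM, dexamethasone at 1 µM and the phosphodiesterase inhibitor IBMX at 0.5 mM. Per the labels the mutant alleles came from knockout mice, so they were not limited to 1 cell type of the embryo. The labels do not say how many embryos or cultures stand behind the replicates, so each p-value reflects only how these libraries vary, which may be technical.

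Gene reads per library lay between 42891627 and 52860419. Ing1 followed the labels, at 0.681 to 1.60 CPM, the gene's reads scaled to the library's total, in the 6 libraries labelled as lacking it and 43.6 to 47.9 CPM in the other 6. Gadd45a went against them, at 138 to 144 CPM in the 6 libraries labelled as lacking it and 13.4 to 18.4 CPM in the other 6. Counts per gene do not show whether these reads come from an intact transcript. The words DKO-labelled and Gadd45a-KO-labelled are used for this reason. The fibroblast marker Col1a1 was abundant everywhere, at 13210 to 16490 CPM. The adipocyte marker Adipoq was at 3.11 to 5.73 CPM in DKO-labelled, 9.14 to 146 CPM in Ing1-KO, 43.1 to 63.2 CPM in Gadd45a-KO-labelled and 69.0 to 164 CPM in WT libraries.

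Prostaglandins are local lipid signals made from arachidonic acid, which phospholipases A2 release from membranes. The cyclooxygenases Ptgs1 and Ptgs2 turn it into a shared precursor, from which Ptges makes prostaglandin E2, Hpgds makes prostaglandin D2 and Ptgis makes prostacyclin. The transporter Slco2a1 carries prostaglandins into cells, where Hpgd oxidises them to inactive products. Ptger3 and Ptger4 encode the EP3 and EP4 receptors for prostaglandin E2, which lower and raise cyclic AMP, and Ptgfr encodes the receptor for prostaglandin F2α. In fat, signalling through EP3 is known to restrain lipolysis, and prostaglandin F2α is known to inhibit the differentiation of preadipocytes.

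The promoter sequences of 4 members are shown. Hpgds and Hpgd were high together in the DKO-labelled libraries, Ptger3 was low in both genotypes labelled as lacking Ing1, and Ptgs2 was the most abundant member. Each line holds the 250 bases before the annotated start of the gene, 5′ to 3′ on the gene's strand, from RefSeq on GRCm38.p6. Capitals mark matches to 1 of the 4 motifs searched.
Hpgds, chr6:65144731-65144980, - strand: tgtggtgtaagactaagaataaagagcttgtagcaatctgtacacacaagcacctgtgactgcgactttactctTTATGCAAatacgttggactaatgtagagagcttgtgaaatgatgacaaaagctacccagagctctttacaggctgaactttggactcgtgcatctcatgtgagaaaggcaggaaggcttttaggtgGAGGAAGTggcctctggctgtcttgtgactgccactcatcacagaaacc
Hpgd, chr8:56294302-56294551, + strand: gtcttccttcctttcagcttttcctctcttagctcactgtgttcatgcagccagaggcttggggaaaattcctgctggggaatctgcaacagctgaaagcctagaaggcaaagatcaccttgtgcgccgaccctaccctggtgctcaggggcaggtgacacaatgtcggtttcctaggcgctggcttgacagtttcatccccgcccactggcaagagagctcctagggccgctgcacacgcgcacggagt
Ptger3, chr3:157566626-157566875, + strand: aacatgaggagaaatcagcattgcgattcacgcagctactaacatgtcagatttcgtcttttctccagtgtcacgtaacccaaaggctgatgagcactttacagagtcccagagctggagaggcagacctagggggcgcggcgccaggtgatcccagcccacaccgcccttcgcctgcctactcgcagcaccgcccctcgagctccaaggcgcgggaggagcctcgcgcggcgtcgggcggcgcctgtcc
Ptgs2, chr1:150099781-150100030, + strand: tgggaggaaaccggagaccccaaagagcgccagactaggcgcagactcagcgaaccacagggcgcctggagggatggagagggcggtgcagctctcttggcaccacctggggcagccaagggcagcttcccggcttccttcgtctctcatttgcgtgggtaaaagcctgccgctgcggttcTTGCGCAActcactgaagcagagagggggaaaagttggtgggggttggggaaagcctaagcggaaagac
Both strands were searched for the TATA box TATAAA, the core of the cyclic AMP response element, TGACGT, the C/EBP motif TTNNGCAA and the PU.1 motif GAGGAAGT, in the 9 members with an entry and in 32851 promoter entries of the same length. The PU.1 motif, that of a transcription factor of myeloid cells, was in Hpgds, 49 to 42 bases before the start, and in Ptgs1, 24 to 17 bases before it, and in 2.44% of all promoters. The C/EBP motif was in Hpgds and in Ptgs2, where it reads the same on both strands, and in 9.56% of all promoters. Slco2a1 held the TATA box, as did 12.4% of all promoters, and no member held the cyclic AMP motif, which 6.47% of promoters had. The shown windows of Hpgd and Ptger3 held no match, which says only that these letters are not in them.

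Ptgs2, the inducible cyclooxygenase, had the highest level per length, at 38.1 CPM per kb of exon in DKO-labelled libraries and 26.5 CPM per kb in WT. Exon lengths came from a later annotation, so levels compared between genes are approximate. Hpgd stood next in the DKO-labelled libraries, at 28.0 CPM per kb, but was at 6.96 CPM per kb in WT, where Ptges (14.6 CPM per kb) and Ptgis (8.61 CPM per kb) lay above it. The receptors were lower than these, but not the only low members. Slco2a1 was at 1.4 CPM per kb in DKO-labelled and 1.73 CPM per kb in WT libraries. Hpgds, at 3.45 CPM per kb in WT, lay below Ptgfr there. Ptgfr, Ptger4 and Ptger3 had levels of 2.99, 2.20 and 1.12 CPM per kb in DKO-labelled libraries and 4.75, 2.82 and 2.82 CPM per kb in WT.

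**Figure D1:**
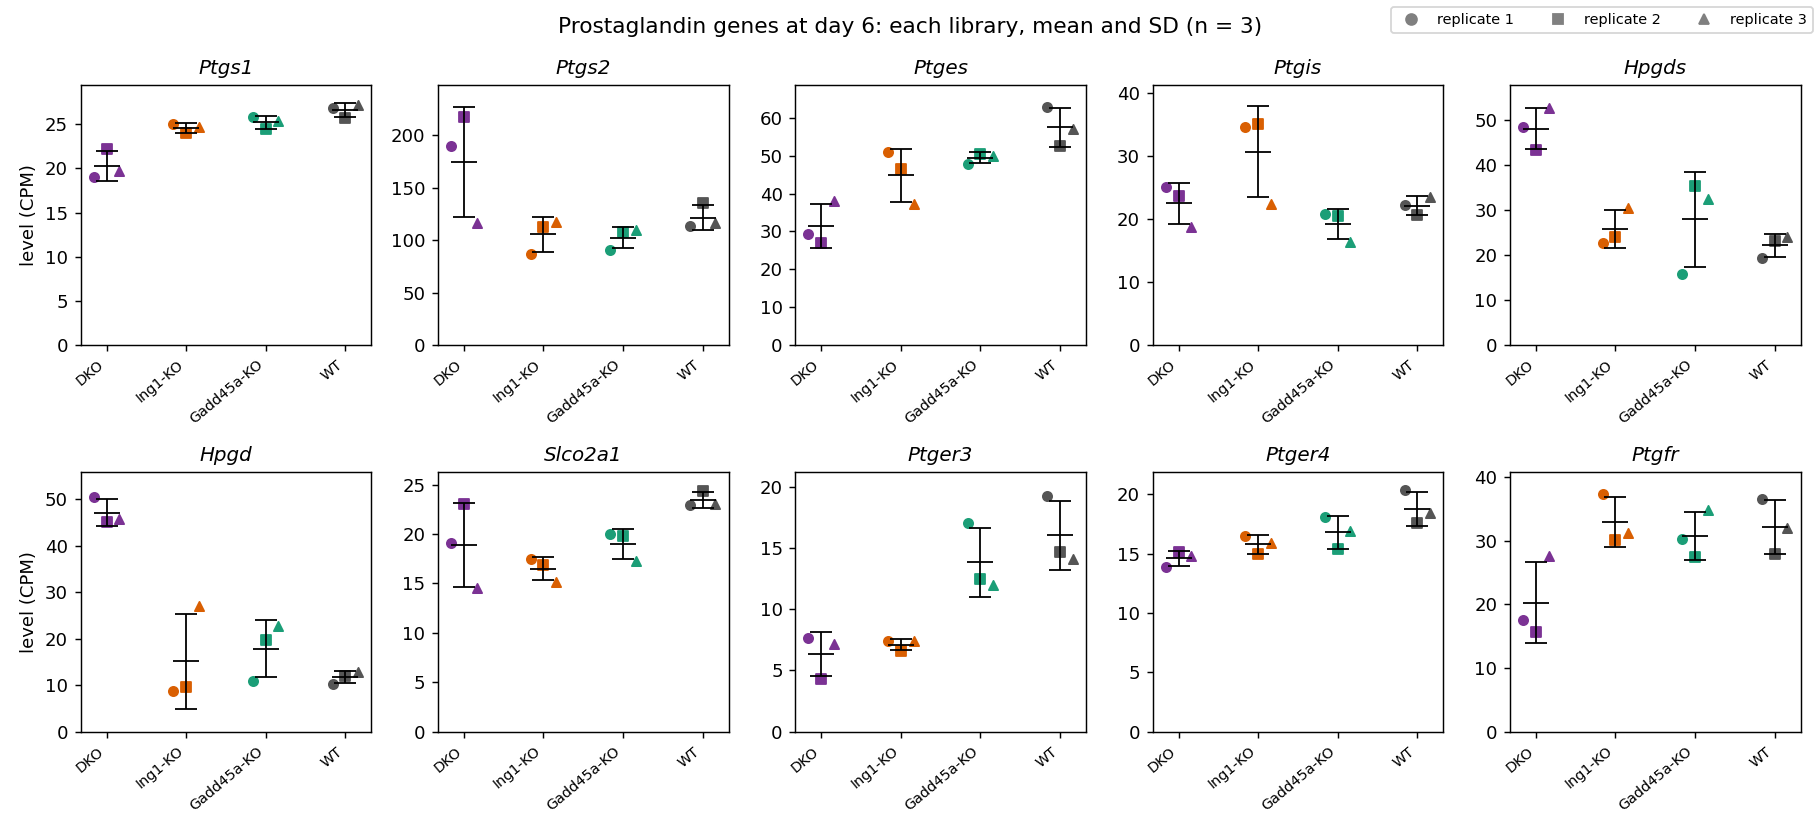
Level of each of the 10 prostaglandin genes in CPM (vertical axis, from 0) for the 4 genotypes as labelled; symbols are single libraries, and bars show the mean and SD of 3. Hpgd and Hpgds are highest in the DKO-labelled libraries, and Ptger3 is at or below 7.61 CPM in every Ing1-KO and DKO-labelled library.

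Among the cyclooxygenases, Ptgs1, the constitutive enzyme, was lower in DKO-labelled libraries and Ptgs2 was higher in most of them. Ptgs1 had 19.1, 22.2 and 19.7 CPM in DKO-labelled libraries, against 25.1, 24.0 and 24.7 CPM in Ing1-KO, 25.9, 24.5 and 25.4 CPM in Gadd45a-KO-labelled and 26.8, 25.7 and 27.2 CPM in WT libraries. All 3 DKO-labelled values lay below all 9 others. Of all tested genes, 13.59% had every DKO-labelled value below every Gadd45a-KO-labelled value, 16.80% below every Ing1-KO value and 19.69% below every WT value. The share below all 9 at once was not computed. Ptgs1 fell against the Gadd45a-KO-labelled libraries by 0.31 on the log2 scale (adjusted p = 0.0344, SE 0.0574; edgeR quasi-likelihood test) and against Ing1-KO by 0.28 (adjusted p = 0.0217, SE 0.0574). When each library was left out in turn, the first call held in 5 of 12 fits, those without Gadd45a-KO-labelled replicate 1, Ing1-KO replicate 1 or 3, or DKO-labelled replicate 2 or 3, and the adjusted p reached 0.163. The second was lost without Ing1-KO replicate 1 or 2 or DKO-labelled replicate 1, with an adjusted p of up to 0.0899.

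Ptgs2 had 189.5, 218 and 116 CPM in DKO-labelled libraries, against 86.8, 112 and 118 CPM in Ing1-KO, 90.6, 107 and 109 CPM in Gadd45a-KO-labelled and 113, 135 and 116 CPM in WT libraries. DKO-labelled replicate 3 lay among the other genotypes, and the other 2 lay above every other library. Against Ing1-KO Ptgs2 rose by 0.73 in log2 terms (adjusted p = 0.0482 by edgeR, SE 0.206). That call held without Ing1-KO replicate 3 or DKO-labelled replicate 3 and was lost without any other library, with an adjusted p of up to 0.151. Against the Gadd45a-KO-labelled libraries the log2 fold change was 0.77 (± 0.206 SE, adjusted p = 0.0866 by edgeR), and 0.99 without DKO-labelled replicate 3 (adjusted p = 0.00939). The ratio of Ptgs2 to Ptgs1 reads was 9.94, 9.81 and 5.91 in DKO-labelled libraries and between 3.47 and 5.25 in the other 9.

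Downstream of the cyclooxygenases, Ptges was lower in DKO-labelled libraries and Hpgds was higher. Ptges, the inducible prostaglandin E synthase, had 29.3, 27.0 and 38.1 CPM in DKO-labelled libraries, against 50.9, 46.6 and 37.2 CPM in Ing1-KO, 48.0, 50.5 and 50.1 CPM in Gadd45a-KO-labelled and 63.0, 52.6 and 57.0 CPM in WT libraries. Ing1-KO replicate 3 was the only library outside the DKO-labelled group within that group's range. Ptges fell against Ing1-KO by 0.51 on the log2 scale (adjusted p = 0.0413 by edgeR, SE 0.138). That call held without WT replicate 2, Gadd45a-KO-labelled replicate 1, Ing1-KO replicate 3 or DKO-labelled replicate 3, and was lost without any of the other 8, with an adjusted p of up to 0.136. Against the Gadd45a-KO-labelled libraries its log2 fold change was -0.65 (± 0.138 SE, adjusted p = 0.0511).

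Marker levels of several cell types varied with Ptges from library to library. The summed level of 14 adipocyte markers was 443 to 515 CPM in DKO-labelled, 432 to 3457 CPM in Ing1-KO, 1319 to 1742 CPM in Gadd45a-KO-labelled and 1929 to 3837 CPM in WT libraries. Its log2 value correlated with log2 Ptges at r = 0.91 over the 12 libraries, which share genotypes, and the sums of smooth muscle and fibroblast markers did so at r = -0.90 and 0.82. In Ing1-KO the library with the most marker reads (3457 CPM) had the highest Ptges and the library with the fewest (432 CPM) the lowest. The part of these cell types in the difference in Ptges was not tested, and in bulk RNA fewer cells of a type and less RNA per cell cannot be told apart.

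Ptgis, the prostacyclin synthase, had 25.0, 23.6 and 18.8 CPM in DKO-labelled libraries, against 34.6, 35.1 and 22.4 CPM in Ing1-KO, 20.7, 20.5 and 16.4 CPM in Gadd45a-KO-labelled and 22.2, 20.6 and 23.5 CPM in WT libraries. Ing1-KO replicates 1 and 2 stood above every other library and replicate 3 did not. The log2 fold change of Ing1-KO against the Gadd45a-KO-labelled libraries was 0.68 (± 0.172 SE, adjusted p = 0.0684 by edgeR), and 0.86 without Ing1-KO replicate 3 (adjusted p = 0.00454). The Ptgis exons overlap those of the non-coding gene 1110018N20Rik by 156 bases on the other strand, and the library kit does not mark strand. Exons of Ptgfr, Ptgs1 and Slco2a1 also overlap genes on the other strand, by 329, 148 and 104 bases. The genes that overlap Ptgfr and Ptgs1, Gm43618 and Gm43621, have no counts of their own here.

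Hpgds and Hpgd, which make prostaglandin D2 and inactivate prostaglandins, had the highest log2 fold changes of the members in DKO-labelled against WT libraries. Hpgds had 48.4, 43.5 and 52.6 CPM in DKO-labelled libraries, against 22.7, 24.0 and 30.6 CPM in Ing1-KO, 15.8, 35.3 and 32.6 CPM in Gadd45a-KO-labelled and 19.2, 23.2 and 24.0 CPM in WT libraries. The DKO-labelled libraries lay above all others. Of all tested genes, 12.37% had every DKO-labelled value above every Gadd45a-KO-labelled value, 17.37% above every Ing1-KO value and 17.63% above every WT value. Hpgds rose against Ing1-KO by 0.90 in log2 terms (adjusted p = 0.0456 by edgeR, SE 0.251). That call held without Gadd45a-KO-labelled replicate 1 or 2 or Ing1-KO replicate 3 and was lost without any of the other 9, with an adjusted p of up to 0.139. Against the Gadd45a-KO-labelled libraries the difference was 0.79 (± 0.251 SE, adjusted p = 0.13), and 0.51 without Gadd45a-KO-labelled replicate 1.

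Hpgd (ENSMUSG00000031613), on chromosome 8 at 56294585 to 56321043 in GRCm38, had 50.5, 45.1 and 45.7 CPM in DKO-labelled libraries, against 8.66, 9.61 and 27.0 CPM in Ing1-KO, 10.9, 19.7 and 22.8 CPM in Gadd45a-KO-labelled and 10.3, 12.0 and 12.8 CPM in WT libraries. The DKO-labelled libraries stood apart from all others, with the shares of all genes given for Hpgds, and the other 3 genotypes overlapped. Mean levels were 47.1 ± 2.92 CPM (SD, n = 3) in DKO-labelled and 11.7 ± 1.29 CPM in WT libraries, a log2 fold change of 2.01 ± 0.41 (SE). Against the Gadd45a-KO-labelled libraries and Ing1-KO, which share the DKO-labelled libraries with that comparison, the log2 fold changes were 1.41 and 1.64. Among Ing1-KO libraries replicate 3 stood apart, and without it the log2 fold change of Ing1-KO against WT was -0.36 in place of 0.37.

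Macrophage markers were high in the same libraries. The summed level of 15 macrophage and leukocyte markers was 7730 to 8256 CPM in DKO-labelled, 4130 to 4894 CPM in Ing1-KO, 2184 to 6464 CPM in Gadd45a-KO-labelled and 4147 to 4776 CPM in WT libraries. All 15 had a positive log2 fold change in DKO-labelled against WT libraries, with a median of 0.89; 7 were called higher, against 5.88% of all genes, and none was at 0 reads. The lowest sum was that of Gadd45a-KO-labelled replicate 1, which also had the lowest Hpgds. The log2 sum correlated with log2 Hpgds at r = 0.93 and with log2 Hpgd at r = 0.78 over the 12 libraries. Hpgd varied about as closely with other marker sums, at r = -0.86 with adipocyte, 0.77 with smooth muscle and -0.72 with fibroblast markers. For Hpgds these values were -0.75, 0.62 and -0.62, less close than its 0.93 with the macrophage and leukocyte sum. Mast cells also make Hpgds. Of 7 mast cell markers Tpsb2 and Fcer1a were at 0 reads in all libraries, and the sum of the 7 was at most 0.776 CPM. The part of any of these cell types in the levels of Hpgds and Hpgd was not tested.

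**Figure D2:**
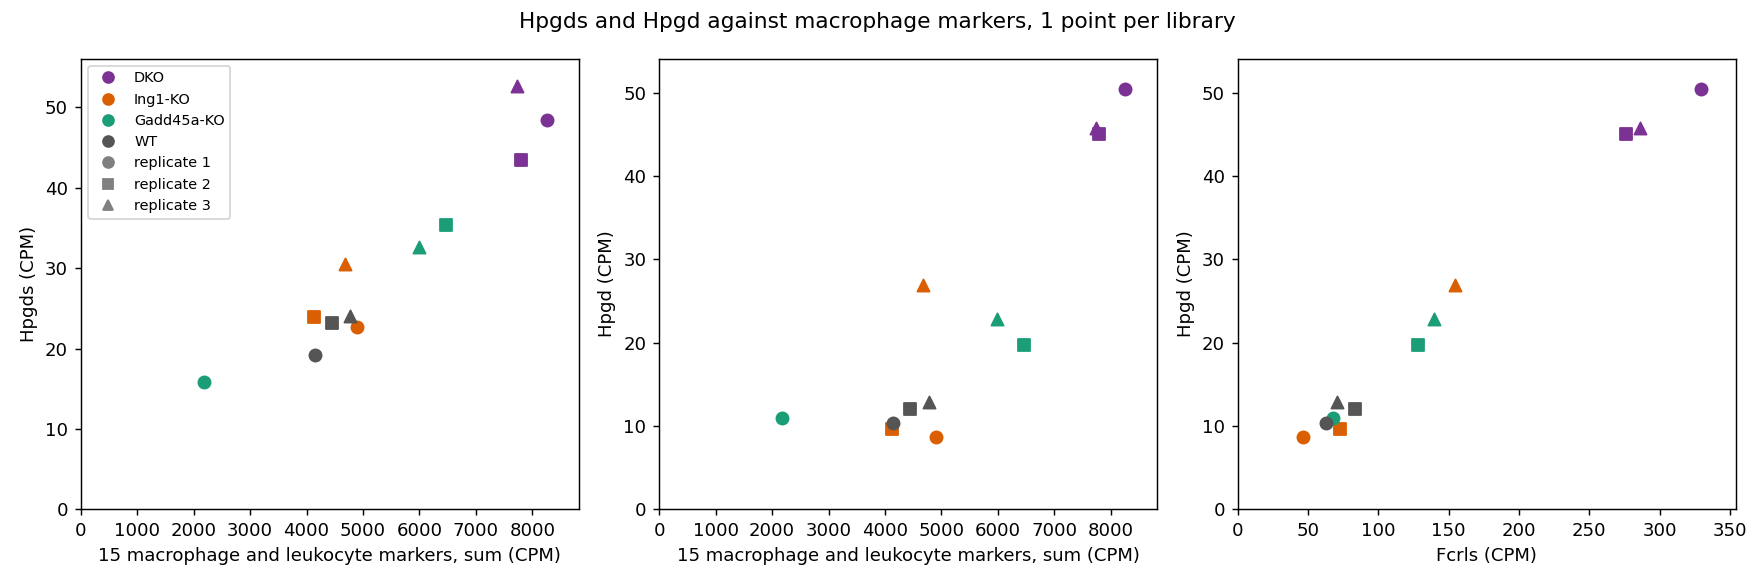
Hpgds (left) and Hpgd (middle) in CPM against the summed CPM of 15 macrophage and leukocyte markers, and Hpgd against Fcrls (right), with 1 point per library, colours for genotypes as labelled and symbols for replicates. Ing1-KO replicate 3 lies above the other Ing1-KO libraries for Hpgd at a similar marker sum (4680 CPM). Its Fcrls, at 154 CPM, is also above theirs, at 46.5 and 72.5 CPM.

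The single genes most like Hpgd were picked for their correlation, so values above those of the summed markers follow from the choice. Of 10456 other protein-coding genes at a mean of 5 CPM or more, those whose log2 CPM correlated best with Hpgd over the 12 libraries were Fcrls (r = 0.990), Aif1 (0.990), Cd300a (0.989), Sat1 (0.978) and Entpd1 (0.977). Fcrls, Aif1 and Cd300a are known from myeloid cells, and Entpd1 encodes the ectonucleotidase CD39. Aif1 is also among the macrophage and leukocyte markers summed above. After subtraction of each genotype's mean the values ranged from 0.916 to 0.978. In Ing1-KO replicate 3 Hpgd, Fcrls and Aif1 were at 27.0, 154 and 10.6 CPM, and in Ing1-KO replicates 1 and 2 they were at most 9.61, 72.5 and 4.82 CPM. Ptprc, the pan-leukocyte antigen CD45, differed less there, at 83.3 CPM in replicate 3 and 73.1 and 74.5 CPM in replicates 1 and 2. Other macrophage and leukocyte markers moved both ways. C1qa was at 234 CPM in replicate 3 against 149 and 161 CPM, and Itgam at 180 CPM against 243 and 200 CPM. Lyz2 alone held 2701 CPM of the marker sum in replicate 3. The genes closest to Hpgds, looked up after its values had been seen, were the transcription factor gene Fli1 and Ms4a6b, both at r = 0.995. The ratio of Hpgds to Hpgd reads was 0.960, 0.964 and 1.15 in DKO-labelled and 1.87, 1.93 and 1.87 in WT libraries.

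Slco2a1, the importer that feeds Hpgd, did not share its pattern. It had 19.1, 23.0 and 14.5 CPM in DKO-labelled libraries, against 17.5, 16.9 and 15.2 CPM in Ing1-KO, 20.1, 19.8 and 17.3 CPM in Gadd45a-KO-labelled and 23.0, 24.3 and 23.0 CPM in WT libraries. All Ing1-KO and Gadd45a-KO-labelled libraries lay below the WT libraries, with log2 fold changes of -0.51 in Ing1-KO and -0.30 in Gadd45a-KO-labelled (SE 0.134 each), and the DKO-labelled libraries spread across all of them. The Gadd45a-KO-labelled value did not pass (adjusted p = 0.897, edgeR quasi-likelihood test). Of all tested genes, 12.45% lay wholly below WT in Ing1-KO and 7.61% in Gadd45a-KO-labelled libraries.

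Among the receptors, Ptger3 was low in both genotypes labelled as lacking Ing1. Ptger3 (ENSMUSG00000040016), on chromosome 3 at 157566892 to 157645888 in GRCm38, had 7.36, 6.55 and 7.37 CPM in Ing1-KO and 19.3, 14.7 and 14.1 CPM in WT libraries, a log2 fold change of -1.17 ± 0.211 (SE). The stated reason for taking up Ptger3 lies in those 6 libraries, but earlier results of all 12 were known when the set was chosen, so the test on the other 6 is not fully independent of that choice. Ptger3 had 7.61, 4.31 and 7.16 CPM in DKO-labelled and 17.0, 12.5 and 12.0 CPM in Gadd45a-KO-labelled libraries. The ranges of DKO-labelled and Gadd45a-KO-labelled libraries did not overlap, and 13.59% of all tested genes were lower without overlap in the same way. Ptger3 fell in that comparison by 1.12 on the log2 scale (95% interval -1.59 to -0.65, adjusted p = 0.0393 by edgeR, SE 0.213), a level 2.17-fold lower in the DKO-labelled libraries. The size changed little and the call did not hold everywhere: leaving out each library in turn gave log2 fold changes from -1.27 to -0.90 with adjusted p from 0.0318 to 0.123, passing in 4 of 12, those without WT replicate 1, Ing1-KO replicate 1 or 3, or DKO-labelled replicate 3. The adjusted p was 0.0796 in a fit of these 6 libraries alone, 0.0592 with no filter on low counts and 3.79e-05 by DESeq2.

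The DKO-labelled and Ing1-KO libraries did not differ detectably in Ptger3, with a log2 fold change of -0.16 and a 95% interval from -0.64 to 0.32. The difference between the effect of Ing1 loss in Gadd45a-KO-labelled cells and in cells labelled wild type for Gadd45a was 0.05 ± 0.298 on the log2 scale (SE; 95% interval -0.61 to 0.71). The Gadd45a-KO-labelled libraries were at a log2 fold change of -0.21 against WT (± 0.204 SE).

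Log2 Ptger3 correlated with the log2 sum of the adipocyte markers at r = 0.70 over the 12 libraries. The 3 Ing1-KO libraries had 3457, 1191 and 432 CPM of summed adipocyte markers, and their Ptger3 levels were within 6.55 to 7.37 CPM. The 3 WT libraries had 3837, 1929 and 3513 CPM of these markers and Ptger3 levels of 19.3, 14.7 and 14.1 CPM. The part of adipocyte content in the level of Ptger3 was not tested. The genes whose log2 CPM was most like that of Ptger3 over the 12 libraries were Cnr1, the cannabinoid receptor gene (r = 0.965), Cebpb, an early adipogenic transcription factor (0.953), Cyp4b1 (0.937), Adamts1 (0.931) and Ntn1 (0.930). With genotype means subtracted these values were 0.636 to 0.788. These genes were picked for their correlation, so a like order of genotypes follows from the choice. Correlation does not give size: Cebpb was at a log2 fold change of -0.30 in DKO-labelled against WT libraries and Ptger3 at -1.33. Cnr1 was at 2.87 to 3.98 CPM in DKO-labelled, 3.94 to 4.65 CPM in Ing1-KO, 6.47 to 10.4 CPM in Gadd45a-KO-labelled and 7.93 to 9.40 CPM in WT libraries.

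**Figure D3:**
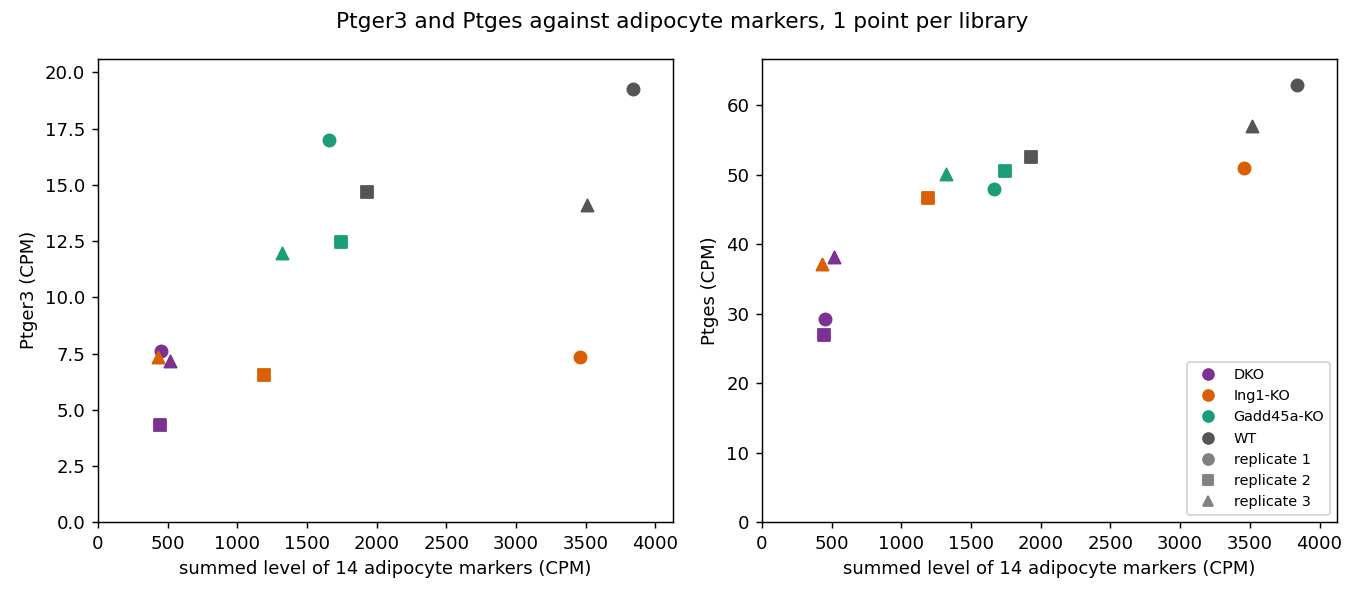
Ptger3 (left) and Ptges (right) in CPM against the summed CPM of 14 adipocyte markers, with 1 point per library, colours for genotypes as labelled and symbols for replicates. Ing1-KO replicate 1, at 3457 CPM of markers, has Ptger3 at 7.36 CPM and Ptges at 50.9 CPM.

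Ptger4 had 13.9, 15.2 and 14.8 CPM in DKO-labelled libraries, against 16.5, 14.95 and 15.9 CPM in Ing1-KO, 18.1, 15.4 and 16.9 CPM in Gadd45a-KO-labelled and 20.3, 17.6 and 18.4 CPM in WT libraries. All DKO-labelled and Ing1-KO values lay below all WT values, with log2 fold changes against WT of -0.36 ± 0.0752 in DKO-labelled and -0.25 ± 0.0748 in Ing1-KO libraries (SE). Of all tested genes, 19.69% lay wholly below WT in DKO-labelled and 12.45% in Ing1-KO libraries. The log2 fold change against the Gadd45a-KO-labelled libraries, -0.20 ± 0.0753 (SE), did not pass (adjusted p = 0.171 by edgeR). Its exons overlap the pseudogene Gm15937 by 1015 bases and Ttc33 by 82 bases on the other strand, so its count is uncertain. The ratio of Ptger3 to Ptger4 reads was 0.439 ± 0.137 in DKO-labelled, 0.449 ± 0.0126 in Ing1-KO, 0.820 ± 0.116 in Gadd45a-KO-labelled and 0.850 ± 0.0913 in WT libraries (SD, n = 3 each).

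Ptgfr had 17.5, 15.7 and 27.6 CPM in DKO-labelled libraries, against 37.4, 30.1 and 31.3 CPM in Ing1-KO, 30.2, 27.4 and 34.8 CPM in Gadd45a-KO-labelled and 36.5, 28.0 and 32.0 CPM in WT libraries. As with Ptgs2, DKO-labelled replicates 1 and 2 stood apart and replicate 3 lay at the edge of the other genotypes. Ptgfr fell against Ing1-KO by 0.70 on the log2 scale (adjusted p = 0.0482 by edgeR, SE 0.198). That call held without DKO-labelled replicate 3 and was lost without any other library, with an adjusted p of up to 0.154. Against the Gadd45a-KO-labelled libraries the log2 fold change was -0.60 (± 0.198 SE, adjusted p = 0.139), and -0.89 without DKO-labelled replicate 3 (adjusted p = 0.0139).

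Ptgs2 and Ptgfr were the most strongly opposed pair of members, at r = -0.91 over the 12 libraries and -0.87 after subtraction of genotype means. Marker levels varied with both. The sum of 7 smooth muscle markers was 8378, 9350 and 6109 CPM in DKO-labelled libraries and between 4883 and 7132 CPM in the other 9, and its log2 value correlated with log2 Ptgs2 at r = 0.86 and with log2 Ptgfr at r = -0.90. The sum of 8 fibroblast markers correlated with them at r = -0.77 for Ptgs2 and 0.89 for Ptgfr. The part of these marker genes' cells in these levels was not tested.

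**Figure D4:**
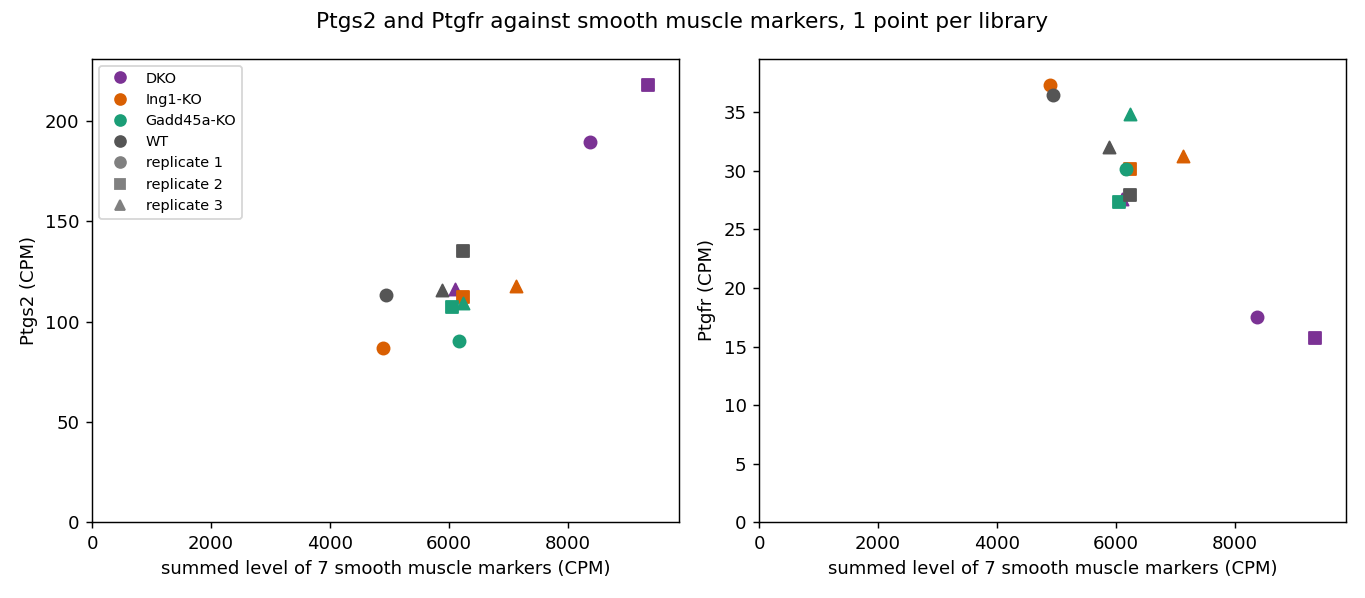
Ptgs2 (left) and Ptgfr (right) in CPM against the summed CPM of 7 smooth muscle markers, with 1 point per library, colours for genotypes as labelled and symbols for replicates. DKO-labelled replicates 1 and 2 (8378 and 9350 CPM of markers) lie apart, and DKO-labelled replicate 3 (6109 CPM) lies among the other genotypes.

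Counted over the set, 6 of 10 members were called in DKO-labelled against WT libraries, Hpgd and Hpgds higher and Ptgs1, Ptges, Ptger3 and Ptger4 lower, where 13% of all tested genes were called, 5.88% higher and 7.11% lower. In Ing1-KO against WT 1 of 10 was called, Ptger3, which was lower, and 4.15% of all genes were called, 1.84% as lower. The set was taken up from these comparisons, so nothing is read from these counts. The median log2 fold change of the members was -0.34 and -0.16 in them and 0.00 over all genes in both. All comparisons below share libraries with at least 1 of these, so nothing is read from their counts of members either.

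In DKO-labelled against Ing1-KO libraries 6 of 10 members were called, 3 higher and 3 lower, against 12% of all genes, 5.93% higher and 6.02% lower. Hpgd, for whose level in DKO-labelled libraries the set was taken up, is among the higher calls. The set's median was -0.13 and that of all genes -0.01. The calls were 1 without a filter on low counts and 1 in a fit of the 6 libraries alone. They were 0 without DKO-labelled replicate 1, Ing1-KO replicate 1 or Ing1-KO replicate 2, 1 without DKO-labelled replicate 2 or WT replicate 3, 2 without WT replicate 1 or Gadd45a-KO-labelled replicate 3, and 3 without WT replicate 2 or Gadd45a-KO-labelled replicate 2. Calls over all genes moved as well, with 1932 in the fit of all libraries and 6, 309 and 12 without DKO-labelled replicate 1, Ing1-KO replicate 1 and Ing1-KO replicate 2.

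In DKO-labelled against Gadd45a-KO-labelled libraries 2 of 10 members were called, Ptgs1 and Ptger3, both lower, against 1.19% of all genes, or 0.557% as lower. DESeq2 called 7, a fit of the 6 libraries alone 0 and a fit without a filter on low counts 1. None was called without WT replicate 2 or 3, Gadd45a-KO-labelled replicate 2 or 3, Ing1-KO replicate 2 or DKO-labelled replicate 1. The count was 1 without WT replicate 1, Gadd45a-KO-labelled replicate 1 or DKO-labelled replicate 2, 4 without Ing1-KO replicate 3 and 5 without DKO-labelled replicate 3. Over all genes the calls were 192 in the fit of all libraries, 1253 by DESeq2, 431 in the fit of the 6 libraries alone, 6 without DKO-labelled replicate 1 and 519 without DKO-labelled replicate 3. In Ing1-KO against Gadd45a-KO-labelled libraries 1 of 10 was called, Ptger3 (-0.96 ± 0.211 SE in log2 terms), and 2.38% of all genes were, 0.879% as lower. That comparison shares the Ing1-KO libraries from which Ptger3 was chosen.

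In Gadd45a-KO-labelled against WT libraries edgeR called 0 of 10 members and 0.0124% of all genes, and DESeq2 called 0 members as well. By edgeR 1 member, Slco2a1, had an unadjusted p under 0.05, as did 854 of the 16163 tested genes. Hpgd had the highest log2 fold change there, 0.60 ± 0.407 (SE), and Slco2a1 the lowest, -0.30. For the departure of DKO-labelled cells from the sum of the single losses, edgeR called 0 members and 0% of all genes. By edgeR 4 members had an unadjusted p under 0.05, as did 2195 of the 16163 tested genes. DESeq2 called 1 member, Ptgs2, and 173 of all genes. That departure was 0.97 ± 0.291 (SE) in log2 terms for Ptgs2 (adjusted p = 0.264 by edgeR) and 1.04 ± 0.568 for Hpgd.

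**Figure D5:**
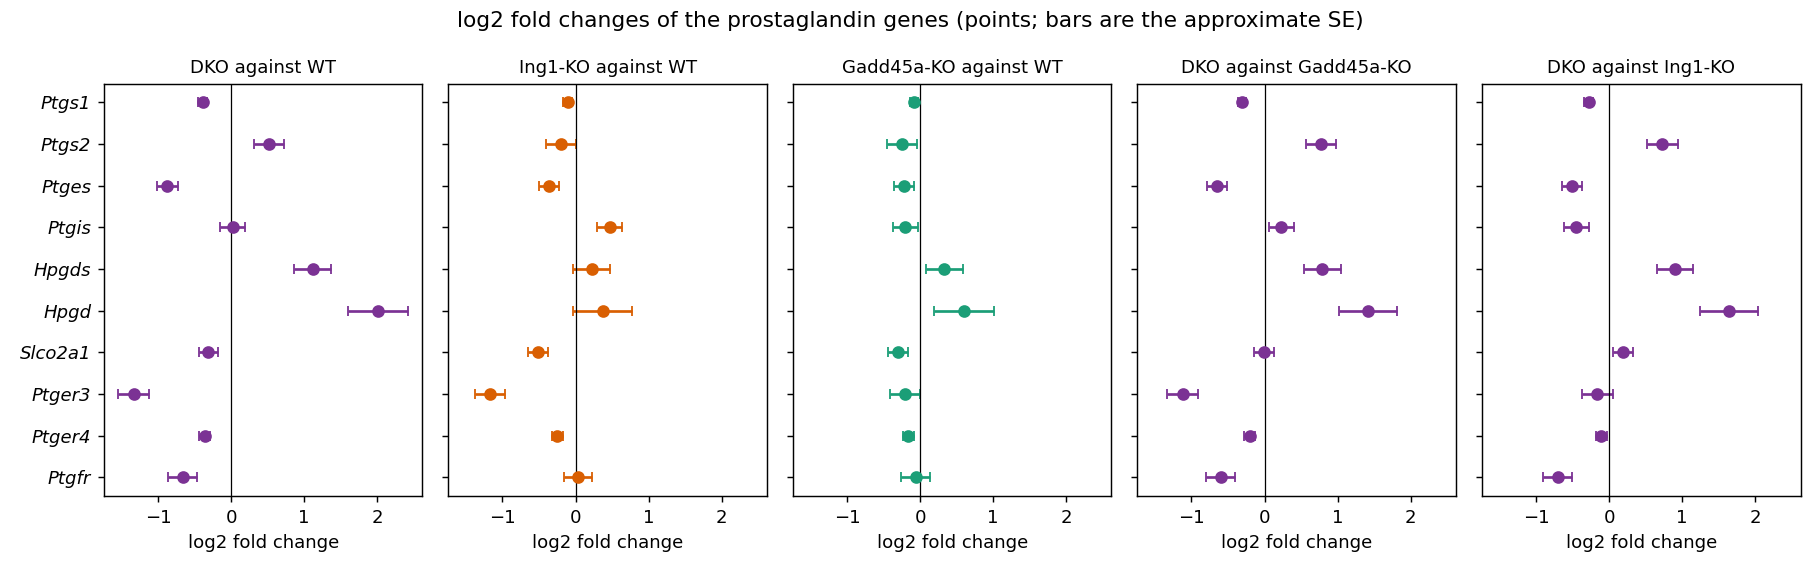
log2 fold changes (horizontal axis) of the 10 members in 5 comparisons of genotypes as labelled, with bars for the approximate SE. Ptger3 is at -1.33, -1.17 and -1.12 in the comparisons that differ in Ing1 and at -0.21 and -0.16 in those that differ in Gadd45a alone.

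The prostanoid pathway holds many further genes. Of 36 further listed genes, from phospholipases to receptors, 27 were tested. In DKO-labelled against WT libraries 3 were higher and 2 lower by edgeR, where 13% of all genes were called, with a median log2 fold change of -0.03 and 0.00 over all genes. Pla2g4a, the cytosolic phospholipase A2 that releases arachidonic acid, was at 114 ± 13.9 CPM in DKO-labelled and 89.5 ± 4.14 CPM in WT libraries (SD, n = 3 each; adjusted p = 0.0395, edgeR). Pla2g16, the phospholipase abundant in adipocytes, fell by 0.61 on the log2 scale (adjusted p = 0.0256, edgeR), and Pla2g6, a calcium-independent phospholipase, also by 0.61 (adjusted p = 0.0025).

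Pla2g7, the platelet-activating factor acetylhydrolase, rose by 1.26 (adjusted p = 0.021 by edgeR, SE 0.284), and its lowest library was Gadd45a-KO-labelled replicate 1, at 49.3 CPM, as for Hpgds. Ptger2, the EP2 receptor gene, was at 5.51 ± 0.510 CPM in DKO-labelled and 3.77 ± 0.550 CPM in WT libraries (adjusted p = 0.156, edgeR), and Ptgir, the prostacyclin receptor gene, at 3.60 ± 0.283 and 5.18 ± 0.381 CPM (adjusted p = 0.0582).

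Ptgds, the other prostaglandin D synthase, had 0.0470, 0 and 0.557 CPM in DKO-labelled libraries, against 7.66, 4.19 and 0.308 CPM in Ing1-KO, 0.753, 2.33 and 4.54 CPM in Gadd45a-KO-labelled and 3.80, 3.56 and 2.55 CPM in WT libraries. Its log2 fold change in DKO-labelled against WT libraries was -3.96 (± 1.25 SE, adjusted p = 0.0657 by edgeR), opposite in sign to that of Hpgds, which makes the same product. In the other comparisons of this list, 1 gene was higher and 2 lower in DKO-labelled against Ing1-KO, where 12% of all genes were called. Pla2g7 was up by 0.99 (adjusted p = 0.0488, edgeR), and Pla2g6 and Zadh2, a prostaglandin reductase gene, were down by 0.28 and 0.24. In Ing1-KO against WT, where 4.15% of all genes were called, Pla2g6 was the only call, down by 0.33 (adjusted p = 0.0389, edgeR). None was called in Gadd45a-KO-labelled against WT or in DKO-labelled against Gadd45a-KO-labelled libraries, where 0.0124% and 1.19% of all genes were called.

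Of 14 listed genes of the leukotriene and lipoxygenase branch 12 were tested. Ltc4s, the leukotriene C4 synthase, was the only call in DKO-labelled against WT libraries, where 13% of all genes were called. Ltc4s was at 0.412 ± 0.0581 CPM in DKO-labelled and 1.58 ± 0.466 CPM in WT libraries (SD, n = 3 each, adjusted p = 0.0276, edgeR). Its DKO-labelled level rests on 20, 16 and 20 reads. Cysltr1, a receptor for cysteinyl leukotrienes, rose against Ing1-KO by 0.88 on the log2 scale (adjusted p = 0.043, edgeR). Lta4h, the leukotriene A4 hydrolase, fell in Ing1-KO against WT by 0.12 (adjusted p = 0.0492, edgeR). Of all genes, 12% were called in DKO-labelled against Ing1-KO and 4.15% in Ing1-KO against WT libraries.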

How the data were processed

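The authors deposited, for every library, the raw read count of each Ensembl gene. The submitters' processing notes list the builds NCBIM37 and mm9, the aligners Bowtie2 2.1.0 and TopHat2 2.0.9, the counter HTSeq 0.5.4, and FastQC and DESeq. The library kit does not mark strand; the strand setting and mode of the counting were not given in the sources used here. Lines that name no gene, 24.2% to 24.85% of each library, were left out. Symbols, matched to 32919 of 37991 identifiers, exon lengths and overlaps came from GENCODE M21 on GRCm38, and promoters from RefSeq. The 12 libraries were pooled and sequenced together, per the labels' protocols.

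Computed here with edgeR 4.0.16 in R 4.3.3 were TMM factors (0.986 to 1.014), CPM, filterByExpr by genotype and robust quasi-likelihood tests on 1 fit of all 12 libraries, with Benjamini-Hochberg adjustment over 16163 genes and a threshold of 0.05. The SE is the absolute log2 fold change over the square root of F. The procedure was tested on simulated counts with changes placed in DKO-labelled against WT libraries. It recovered 56.7% of 1.5-fold, 68.7% of 2-fold and 86.4% of 4-fold changes, with 7 false calls. A difference that did not pass is therefore not shown to be absent.

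The members and gene lists were chosen with earlier results of these data known. All 10 members are named, with called genes of the prostanoid and leukotriene lists, 4 fixed genes of these lists, defining markers and the 5 genes most like Hpgd and Ptger3. Of the called genes of these lists, 1 is not reported here. No pair of replicates was as alike as counting noise alone would make it. Alternatives were RLE and upper-quartile factors, no low-count filter, DESeq2 1.42.0, a replicate block, only the libraries compared, and leaving out each library. CPM is relative, and counting error is small for the members at these depths. It is larger for Ltc4s and Ptgds, with 20, 16 and 20 reads and 2, 0 and 27 reads in the DKO-labelled libraries.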

Additional observations from a re-analysis of the deposited data

How the results depend on the processing

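Recomputed were 55 member log2 fold changes: all 10 members in 5 comparisons, Ptgis and Ptger3 in Ing1-KO against Gadd45a-KO-labelled, and Hpgd, Ptgs2 and Ptger3 for the interaction. None of these 55 turned its sign under the settings that kept all libraries of the genotypes compared. Leaving out single libraries turned the sign of 7 of the 55, with ranges of -0.36 to 0.65 for Hpgd and -0.07 to 0.13 for Ptgfr in Ing1-KO against WT, -0.16 to 0.04 for Ptgfr in Gadd45a-KO-labelled against WT, -0.06 to 0.14 for Ptgis in DKO-labelled against WT, -0.18 to 0.15 for Slco2a1 in DKO-labelled against Gadd45a-KO-labelled, -0.30 to 0.05 for Ptger3 in DKO-labelled against Ing1-KO, and -0.10 to 0.27 for the interaction of Ptger3. The cause was not tested.

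Counts of called members moved more, as did those over all genes. In Ing1-KO against WT the count was 3 by DESeq2, 2 with the replicate block and 2 with only the libraries compared. Over all genes these settings gave 1256, 536 and 398 calls, and the fit of all libraries 671. With a library left out 0 to 2 members and 96 to 1155 of all genes were called. Ptger3 was not called without WT replicate 1 or 2 or Ing1-KO replicate 2. In DKO-labelled against WT 3 to 7 members were called when a library was left out, with 3 without WT replicate 1 or DKO-labelled replicate 1. Over all genes those fits gave 299 and 321 calls, and the fit of all libraries 2099. Hpgd was not called without WT replicate 1 or 3 or DKO-labelled replicate 1. The set was taken up from this pair of comparisons, so nothing is read from these counts or from how these calls held. The comparisons that follow share libraries with this pair, so nothing is read from their counts of members either. In DKO-labelled against Gadd45a-KO-labelled the count of members was 1 with no filter, 7 by DESeq2, 1 with the replicate block and 0 with only the libraries compared. Over all genes these settings gave 206, 1253, 92 and 431 calls. With a library left out 0 to 5 members were called. In DKO-labelled against Ing1-KO the count of members was 1 with no filter, 1 with only the libraries compared and 0 to 6 with a library left out. Over all genes the calls were 1183 with no filter and 1220 with only the libraries compared. In Ing1-KO against Gadd45a-KO-labelled the count of members was 0 with upper-quartile factors, 0 with no filter, 2 by DESeq2, 2 with the replicate block and 0 with only the libraries compared. Over all genes these settings gave 323, 284, 1066, 280 and 35 calls. With a library left out 0 to 2 members were called, Ptger3 being lost without any one of 10 libraries. For the interaction DESeq2 called 1 member and 173 of all genes. For Ptger3 in DKO-labelled against Gadd45a-KO-labelled, the value was -1.13 with no filter (adjusted p = 0.0592, edgeR), -1.12 with only the libraries compared (0.0796), -1.13 with the replicate block (0.0256) and -1.27 to -0.90 with a library left out. The block changed other calls as well, with 7 members called in DKO-labelled against WT, 4 in DKO-labelled against Ing1-KO and 0 for the interaction. Over all genes the calls with the block were 1784, 1344 and 0 in these comparisons.

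The replicate numbers do not pair the libraries: deviations from genotype means correlated between same-numbered libraries at -0.17 to 0.23 (median 0.01) and between others at -0.35 to 0.36. The members had 195 reads or more in every library.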
